A study of Mus musculus with 8 samples.

Results

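The genes described are those of the lysosomal acidification and degradation machinery in mouse dorsal root ganglia (DRG). These ganglia flank the spinal cord and house the sensory neurons' cell bodies. Members were taken by gene symbol: the subunits of the vacuolar proton pump (Atp6v0 and Atp6v1 genes) and its accessory proteins (Atp6ap1 and Atp6ap2), the cathepsins (Cts genes with a single letter or digit) and the lysosome-associated membrane proteins (Lamp1 to Lamp5). The rule found 50 members among 48315 gene symbols, each on 1 row, and used no measured value. They comprise 13 V1 subunits, 9 V0 subunits, 2 accessory proteins, 10 cysteine cathepsins outside the placental cluster, 8 cathepsins of the rodent placental cluster, 2 aspartic cathepsins, 2 serine cathepsins and 4 LAMP genes.

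Ribosome footprints, the stretches of RNA that ribosomes shield, were sequenced from DRG of mice labelled as wild type (WT), strain SW. All animals had received saline, the control treatment. There were 4 libraries labelled female and 4 labelled male, each with a replicate number from 1 to 4; the sources used here give neither ages nor any pooling of animals. RNA abundance, for which the protocol describes separate 3′ libraries, was not used here. The labels leave unsaid whether the libraries of a group came from separate animals, so a p-value reflects the spread among these samples alone, which may be technical.

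The vacuolar proton pump is a rotary machine. Its V1 sector, in the cytosol, hydrolyses ATP, and its V0 sector, in the membrane, carries protons into lysosomes, endosomes and, in neurons, synaptic vesicles. Cathepsins are proteases, most of which work best at the acid pH that the pump creates, and LAMP proteins form much of the glycoprotein coat on the inner face of the lysosomal membrane. Sensory neurons return cargo from long axons to the cell body for degradation, and DRG also hold satellite glia, Schwann cells, fibroblasts and macrophages, all of which have lysosomes.

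Depth ran from 3697691 assigned reads in the library labelled male 1 to 12714550 in male 3. Levels are counts per 1000000 assigned reads (CPM), and the floor of 3 reads corresponds to 0.236 to 0.811 CPM, which covers counting error only. In 3 of the 8 libraries (female 1, female 3 and male 1) the sex-linked genes contradicted the labelled sex, so libraries are named by their label throughout and the comparison of the labels is also given without these 3. The libraries labelled female 1 and female 3 were closer to each other than any other pair: by a chi-square test per gene, 1.06% of coding genes differed between them beyond counting noise, against 9.41% to 31.8% in the other pairs. Where reads lie within a gene was not tested, and in bulk tissue fewer cells of a type cannot be told apart from fewer footprints per cell.

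Together the members held 0.899% ± 0.0563 (SD, n = 8) of assigned reads. The cysteine cathepsins outside the placental cluster took the greatest part of this, 3251 ± 165 CPM, followed by the V1 sector with 1628 ± 312 CPM. LAMP genes summed to 1257 ± 118 CPM and the V0 sector to 1033 ± 93.9 CPM. Of the 50 members, 36 were over 3 reads in every library and 11 were over 3 reads in none. The comparison of labels covers the 37 members with a mean of at least 1 CPM; members with a lower mean were not tested.

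To compare genes, levels were divided by the length of the longest coding sequence and are given as CPM per kilobase. On that scale Ctsb led with 1709 ± 74.4 (SD, n = 8), rank 24 among coding genes. Ctsl followed at 1045 ± 154, Ctsd at 641 ± 68.9 and Lamp1 at 571 ± 64.3, and their ranks were 58, 120 and 139. In all, 19 members were among the 1000 coding genes with the highest levels per kilobase. Neighbours in this order were seldom separate: in 31 of the 36 neighbouring pairs of the 37 tested members, the ranges over the 8 libraries overlapped. The exceptions were Ctsb over Ctsl, Ctsl over Ctsd, Lamp1 over Lamp2, Lamp2 over Atp6ap1 and Atp6v0d2 over Atp6v1c2.

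**Figure D1:**
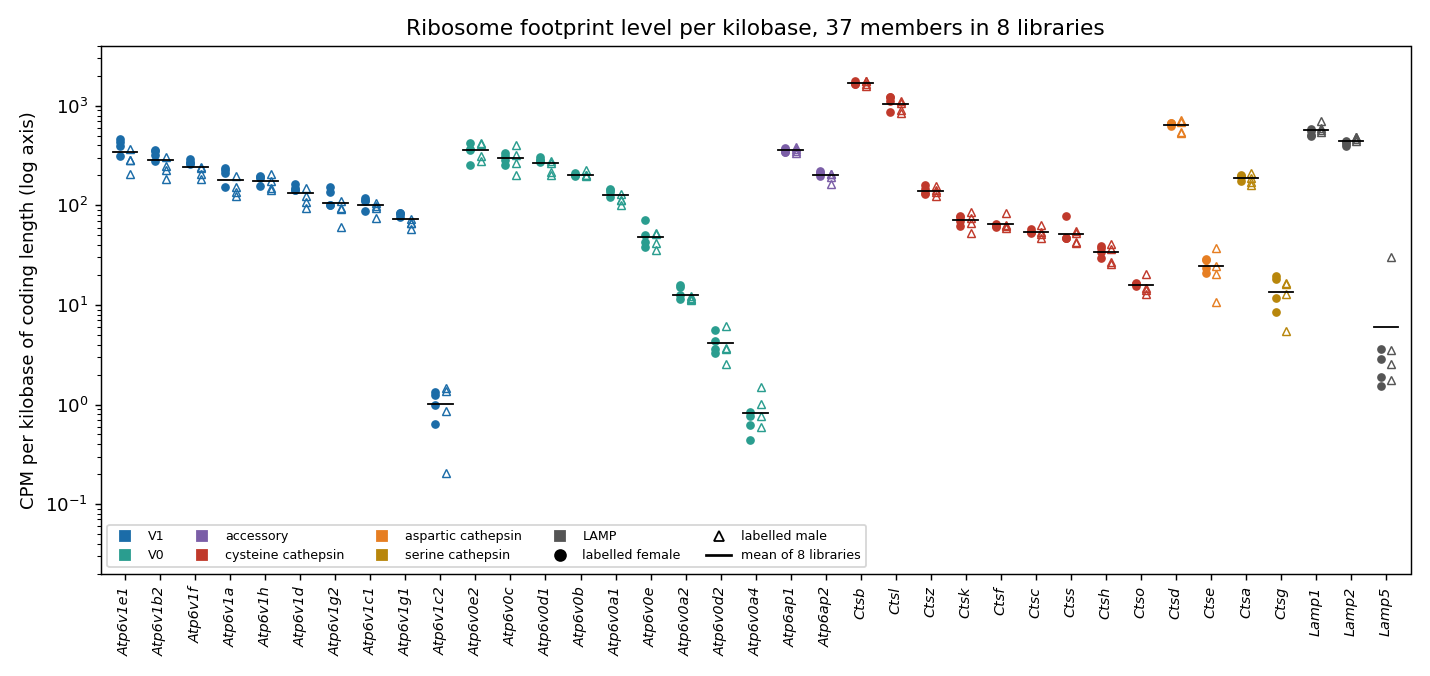
Footprint level of the 37 tested members, in CPM per kilobase of coding length on a log axis, grouped by role; filled circles are libraries labelled female, open triangles libraries labelled male and bars the mean of 8 libraries. Ctsb lies highest at 1709 CPM per kilobase, and Atp6v1c2 and Atp6v0a4 lie lowest at 1.01 and 0.821.

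Some members share coding sequence with other genes, so that short footprints cannot always be assigned to them. Of the 28-nt windows of the longest coding sequence, 93.6% also occur in transcripts of another gene for Atp6v0c, 82.9% for Atp6v1g1, 65.0% for Ctsd, 61.8% for Atp6v1f and 21.02% for Atp6ap2. In Atp6v1a, Ctsh and Ctsb the share was 7.51%, 4.94% and 4.44%. How the authors assigned reads that match several genes is not stated in these sources. In Atp6v0c and Ctsd the value was no whole multiple of 1 read in any of the 8 libraries, in Ctsb in 6 and in Ctsl in 1. The values of these members are therefore uncertain. For Ctsd, Atp6v1f and Atp6v1a no partner gene was among the deposited genes, so the level of their partners is unknown. For Atp6v0c 1 of 2 partners was among them, and for Atp6v1g1 6 of 8. Partners present for Atp6v0c, Atp6v1g1, Atp6ap2, Ctsb and Ctsh summed to no more than 1.48 CPM in any library, the highest being for Atp6v0c.

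In the V1 sector, the subunit with the highest level per kilobase was Atp6v1e1 (subunit E1 of the peripheral stalk, chr6:120794305-120822793 on GRCm38), at 343 ± 86.4 CPM per kilobase. Its levels were 266, 214, 292 and 314 CPM in female 1 to 4 and 139, 192, 249.2 and 193 CPM in male 1 to 4. The lowest library was male 1 and the highest female 4. Atp6v1b2 encodes the B subunit that forms the ATP-hydrolysing ring together with the A subunit. Atp6v1b2 was at 556, 433, 543 and 489 CPM in female 1 to 4 and 285, 378, 469 and 351 CPM in male 1 to 4. Atp6v1f, a subunit of the central stalk, was at 96.0, 97.4, 92.3 and 104 CPM in female 1 to 4 and 65.7, 84.7, 87.8 and 73.4 CPM in male 1 to 4, and its libraries labelled female all lay above those labelled male. The other subunits without a tested paralog were Atp6v1a, the ATP-hydrolysing A subunit, at 181 ± 44.0, Atp6v1h, the regulatory H subunit, at 176 ± 24.2, and Atp6v1d, part of the rotor, at 134 ± 23.7 CPM per kilobase.

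Mice have alternative genes for several V1 subunits, and DRG footprints came mainly from a single gene in each of 3 families. Atp6v1b2 held 99.97% of the B subunit's CPM per kilobase and Atp6v1e1 99.99% of the E subunit's. Atp6v1b1, known from kidney and inner ear, and Atp6v1e2, known from testis, did not exceed 3 reads in any library. Atp6v1c1 held 99.0% ± 0.407 of the C subunit, with 127, 102, 131 and 136 CPM in female 1 to 4 and 85.5, 112, 122 and 109 CPM in male 1 to 4. Atp6v1c2 was at 1.75, 1.29, 1.65 and 0.830 CPM in female 1 to 4 and 0.271, 1.12, 1.81 and 1.92 CPM in male 1 to 4, near the floor of 3 reads.

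The G subunit, part of the stalk that joins the sectors, was divided between a pair of genes. Atp6v1g2, known from neurons, was at 53.6, 35.6, 48.0 and 35.7 CPM in female 1 to 4 and 21.4, 32.8, 38.9 and 33.0 CPM in male 1 to 4, highest in female 1 and lowest in male 1. Atp6v1g1, the widely expressed form, was at 30.0, 28.8, 27.3 and 29.6 CPM in female 1 to 4 and 20.6, 25.9, 23.6 and 23.4 CPM in male 1 to 4, and its lowest library labelled female lay above its highest labelled male. Per kilobase, Atp6v1g2 held 58.2% ± 4.82 of the subunit and Atp6v1g1 41.8% ± 4.79. This order rests on the length used: divided by the windows found in no other gene, which are few in Atp6v1g1, the share of Atp6v1g2 was 19.4%. Atp6v1g3, known from kidney, did not exceed 3 reads in any library.

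In the V0 sector, Atp6v0e2 had the highest level per kilobase, 357 ± 65.7. This gene (chr6:48537615-48541801) encodes a form of the small e subunit that is enriched in brain, and was at 125.3, 144, 122 and 86.1 CPM in female 1 to 4 and 106, 140.1, 141 and 94.8 CPM in male 1 to 4. Its paralog Atp6v0e, the widely expressed form, was at 13.4, 11.8, 15.9 and 22.1 CPM in female 1 to 4 and 11.1, 16.6, 13.0 and 16.1 CPM in male 1 to 4. The groups overlapped for both genes. Atp6v0e2 held 87.7% ± 4.40 of the e subunit per kilobase, with the lowest share, 78.3%, in female 4.

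The a subunit carries protons past the rotor ring and its paralog directs the pump to a membrane: a1 to synaptic vesicles, a2 to Golgi and endosomes, a3 to the osteoclast's bone-facing membrane and secretory lysosomes, and a4 to kidney and inner ear. Atp6v0a1 was at 362, 305, 369.9 and 346 CPM in female 1 to 4 and 254, 286, 329.8 and 285 CPM in male 1 to 4. Atp6v0a2 was lower, at 40.5, 29.6, 38.6 and 32.5 CPM in female 1 to 4 and 31.4, 29.2, 28.9 and 30.2 CPM in male 1 to 4. Atp6v0a1 was thus the higher of both in every library. Atp6v0a4 was the lowest, at 1.92, 2.11, 1.56 and 1.11 CPM in female 1 to 4 and 3.79, 2.51, 1.49 and 1.92 CPM in male 1 to 4, close to the floor. With Tcirg1, the gene of a3 whose symbol lies outside the rule, Atp6v0a1 held 82.8% ± 1.82 of the subunit per kilobase, Atp6v0a2 8.38% ± 0.805, Tcirg1 8.26% ± 1.47 and Atp6v0a4 0.564% ± 0.294.

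Subunit d, which couples the rotor ring to the stalk, came almost wholly from Atp6v0d1, with 98.5% ± 0.395 per kilobase. Atp6v0d1 was at 322, 285, 301 and 299 CPM in female 1 to 4 and 213, 280.0, 294 and 231 CPM in male 1 to 4. Atp6v0d2, known from osteoclasts and kidney, was at 3.49, 3.75, 4.52 and 5.95 CPM in female 1 to 4 and 2.70, 6.42, 3.85 and 3.83 CPM in male 1 to 4. The osteoclast markers, summed over 7 genes, lay between 120.1 and 157 CPM in female 1 to 4 and between 157 and 226 CPM in male 1 to 4, mostly from Acp5 and Mmp9, while Calcr had a mean of 0.609 CPM; their part in Atp6v0d2 and Tcirg1 was not tested. The proton-carrying ring itself is made of the proteolipids Atp6v0c and Atp6v0b, at 298 ± 61.2 and 204 ± 9.19 CPM per kilobase, the former with the shared sequence given above.

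**Figure D2:**
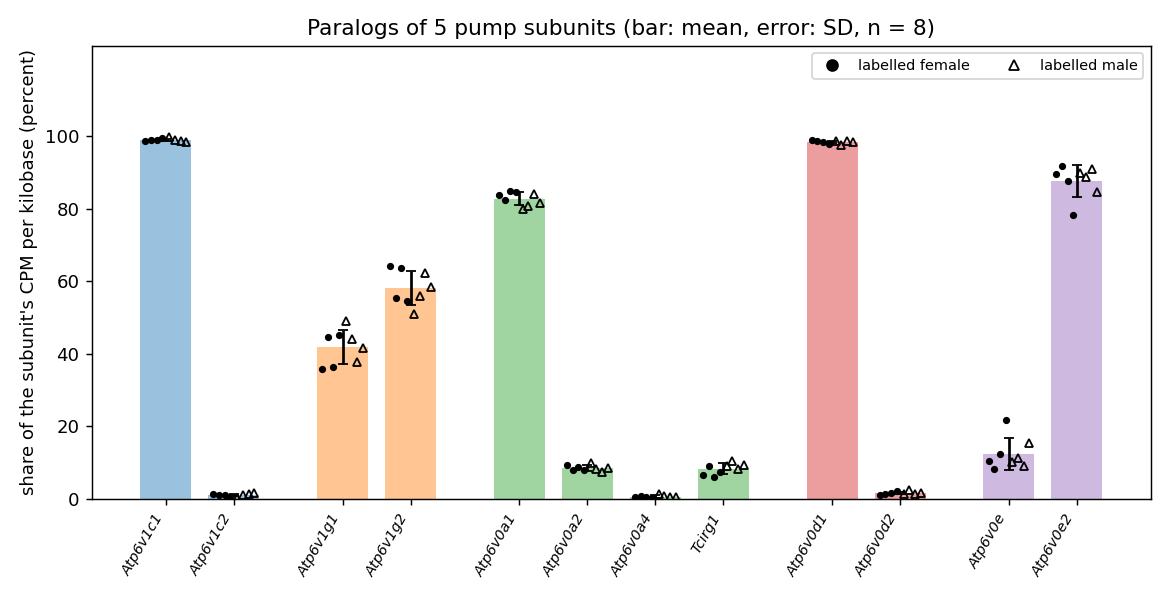
Share of each paralog in its pump subunit, as percent of the subunit's summed CPM per kilobase, for 5 subunits with several measured genes; bars are means and error bars SD over 8 libraries, with circles for libraries labelled female and triangles for those labelled male. Atp6v1c1 and Atp6v0d1 take almost all of their subunit, while Atp6v1g1 and Atp6v1g2 divide theirs into 41.8% and 58.2%.

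Both accessory genes, which lie on the X chromosome, were well covered. Atp6ap1 (chrX:74297097-74304721), which encodes a protein that helps assemble the pump, was at 529.6, 482, 475 and 511 CPM in female 1 to 4 and 463, 539, 513 and 487 CPM in male 1 to 4. Its highest library was only 1.16 times its lowest. Atp6ap2, also known as the prorenin receptor, had a level of 202 ± 17.4 CPM per kilobase.

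Among the cathepsins, Ctsb (chr14:63122462-63145923), a cysteine protease of most cell types, was the highest and the most even. Ctsb was at 1688, 1737, 1684 and 1809 CPM in female 1 to 4 and 1699, 1828, 1629 and 1827 CPM in male 1 to 4. Its highest library was 1.12 times its lowest, and its SD on the log2 scale, 0.063, was at percentile 0.102 of all genes tested. Ctsl, another widely expressed cysteine protease, was at 1047 ± 154 CPM. Ctsz, a carboxypeptidase, had 141 ± 12.7 CPM per kilobase. Ctsf had 64.9 ± 7.76 and Ctsc, which activates the serine proteases of immune cell granules, 54.4 ± 4.75.

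Other cathepsins are known from particular cell types. Ctsk, the collagen-degrading cathepsin of osteoclasts and also of fibroblasts, had 70.9 ± 10.7 CPM per kilobase, and Ctss, a cathepsin of macrophages and other antigen-presenting cells, 51.6 ± 11.8. Ctss was even in female 1 to 3, between 47.9 and 48.3 CPM, and at 80.3 CPM in female 4. The 5 fibroblast markers summed between 10121 and 10985 CPM in female 1 to 4 and between 11109.7 and 15202 CPM in male 1 to 4. The 9 macrophage markers, led by Lyz2, Csf1r and Mrc1, summed between 540.1 and 703 CPM in female 1 to 4 and between 596 and 749 CPM in male 1 to 4; their part in the levels of Ctsk and Ctss was not tested. Ctsh, an aminopeptidase, and Ctso had 33.7 ± 5.62 and 15.9 ± 2.21 CPM per kilobase. Ctsw, known from T and NK cells, had a mean of 0.649 CPM, and the 4 T and NK cell markers summed between 2.78 and 5.06 CPM in female 1 to 4 and between 2.43 and 3.07 CPM in male 1 to 4.

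The 8 cathepsin genes of the placental cluster on chromosome 13, known from rodent placenta, exceeded 3 reads in no library. Of these, Ctsr, Ctsj, Cts7, Cts3 and Ctsq had no read in any library, and Cts6, Cts8 and Ctsm had a mean of 0.0655, 0.0715 and 0.0207 CPM. By counting error alone, a count of 0 allows a level of up to 0.811 CPM in the shallowest library and 0.236 CPM in the deepest. Of the 28-nt windows, 100% in Cts8, 59.7% in Ctsm and 31.7% in Cts3 also occur in transcripts of another gene. How such reads were assigned is not stated, so the low counts of these 3 genes do not show absence.

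Ctsd (chr7:142375911-142388038), the main aspartic protease of lysosomes, was at 827, 806, 824 and 773 CPM in female 1 to 4 and 657, 897, 855 and 672 CPM in male 1 to 4. The groups overlapped, with the lowest and the highest library both labelled male. Ctse, an aspartic protease of endosomes, was at 33.5, 34.7, 27.8 and 25.2 CPM in female 1 to 4 and 12.7, 44.2, 29.6 and 24.5 CPM in male 1 to 4, with its lowest library, male 1, and its highest, male 2, in the same group. The serine carboxypeptidase Ctsa (chr2:164832873-164841032), which protects beta-galactosidase and neuraminidase in the lysosome, was at 285, 291, 262 and 298 CPM in female 1 to 4 and 239, 311, 278 and 252 CPM in male 1 to 4. Ctsg, a serine protease of neutrophil granules, was at 14.1, 9.26, 15.2 and 6.64 CPM in female 1 to 4 and 4.33, 12.7, 13.0 and 10.03 CPM in male 1 to 4. Its libraries spread 3.51-fold within overlapping groups. The 8 markers of neutrophils and their precursors, led by S100a9, S100a8 and Ltf, summed between 581 and 1109 CPM in female 1 to 4 and between 431 and 1605 CPM in male 1 to 4, and their part in Ctsg was not tested.

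Of the LAMP genes, Lamp1 (chr8:13159161-13175338) and Lamp2 (chrX:38401357-38456454), the main glycoproteins of the lysosomal membrane, were the highest. Lamp1 was at 611, 705, 617 and 675 CPM in female 1 to 4 and 728, 861, 694 and 670.5 CPM in male 1 to 4. Lamp2, a splice form of which serves chaperone-mediated autophagy, was at 489.6, 554, 513 and 547 CPM in female 1 to 4 and 555, 604, 585 and 603 CPM in male 1 to 4, and every library labelled male lay above every library labelled female. Lamp5, known from neurons of the brain and plasmacytoid dendritic cells, was at 1.57, 1.29, 2.43 and 3.04 CPM in female 1 to 4 and 2.16, 25.5, 1.49 and 2.95 CPM in male 1 to 4. Male 2 stood apart for this gene. The 4 spinal cord markers (led by Gja1, Slc1a2 and Mog) summed between 154 and 216 CPM in female 1 to 4. In male 1 to 4 they summed between 166 and 424 CPM, with the highest sum in male 2. Gja1, with a mean of 165 CPM, made up most of this sum. In male 2, Slc1a2 was at 139.9 CPM, where the other libraries lay between 16.1 and 27.7 CPM. Mog was at 19.4 CPM in male 2, against 1.52 to 4.28 CPM in the others. Olig2 was at 8.09 CPM in male 2, against 0.521 to 1.57 CPM in the others. The part of these markers in Lamp5 was not tested. Lamp3, known from lung and mature dendritic cells, was over 3 reads in 1 library.

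Many lysosomal genes carry in their promoters the palindrome TCACGTGA, the core of the element bound by TFEB and related factors, and the windows that hold it are shown because they place the motif in members of different roles. RefSeq promoters (GRCm38.p6, 250 bases before to 50 after the start) were matched for 40 of the 50 members. Searched on both strands, TCACGTGA stood in 12.5% of these, 5 of 40, and in 1.12% of 27025 genes. The shorter E-box CACGTG, which it contains, stood in 9 of 40 members, 22.5%, and in 8.09% of all genes. A match is a description of the letters and not a binding site. The 28-base windows around the palindrome, in capitals, read 5′ to 3′ on the gene's strand:
Atp6v0d1, chr8:105566051-105566078, minus strand: cctactgcggTCACGTGAgacgcggtgc
Atp6v0e, chr17:26676388-26676415, plus strand: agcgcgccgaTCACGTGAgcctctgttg
Atp6v1a, chr16:44139374-44139401, minus strand: tttttttaaaTCACGTGAtaggcttaac
Ctsa, chr2:164833750-164833777, plus strand: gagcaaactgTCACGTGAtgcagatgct
Ctsa, chr2:164833767-164833794, plus strand: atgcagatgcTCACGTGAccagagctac
Ctsd, chr7:142387909-142387936, minus strand: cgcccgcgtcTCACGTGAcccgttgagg
The palindrome was found in both pump sectors and in a serine and an aspartic cathepsin, and Ctsa held it at 2 positions. The 5 genes differ in level, from 48.1 ± 11.3 CPM per kilobase in Atp6v0e to 641 ± 68.9 in Ctsd.

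Spread over the libraries was compared with all genes tested, without matching on level. The median SD of log2(CPM + 1) was 0.22 for the 37 tested members and 0.27 for all genes tested, and 23 of the 37 lay below the latter. The least variable were Atp6v0b at 0.062, Ctsb at 0.063 and Atp6ap1 at 0.078. The most variable were Lamp5 at 1.14, Ctsg at 0.55 and Ctse at 0.51.

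No member, and none of the 15720 genes tested (0%), passed the threshold for a difference between the labelled sexes (limma, Benjamini-Hochberg adjusted p below 0.05). The smallest adjusted p was 0.372, both over all genes and over the members. With a block on the replicate number, 27 genes (0.172%) passed and none was a member, with a smallest adjusted p among members of 0.158. Without the 3 libraries at odds with their label, 5 genes (0.0317%) passed and none was a member. At an unadjusted p below 0.05 the 37 members included 7 with higher levels in the libraries labelled female, against 11.9% of all genes in that direction, and 0 with higher levels in those labelled male, against 1.41%. By sign, 28 of 37 members were higher in the libraries labelled female, as were 71.7% of all genes. These splits moved with the scaling. Under median-ratio scaling, which sets the libraries to a common median ratio over genes, 15 of 37 members were higher on the female side, as were 50.5% of all genes. At an unadjusted p below 0.05, 2 members were then higher and 2 lower, against 6.31% and 6.54% of all genes. The median log2 fold change, female minus male on log2(CPM + 1), was 0.12 for members and 0.15 for all genes. This scale understates the change of low genes.

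All 7 members at an unadjusted p below 0.05 were V1 subunits. The 10 tested V1 subunits were all higher in the libraries labelled female, with a median log2 fold change of 0.34; 9 were with median-ratio scaling or without male 1, and 8 without the 3 libraries at odds with their label. Of the 9 V0 subunits 6 were higher, beside 71.7% of all genes. Their median of 0.086 became -0.038 under median-ratio scaling. Atp6v1b2 had a log2 fold change of 0.46 (SE 0.16) and limma's unadjusted p was 0.0145, adjusted 0.372. Atp6v1e1 had 0.50 (SE 0.18) with an unadjusted p of 0.0189, and Atp6v1f 0.33 (SE 0.12) with 0.0215. The others were Atp6v1a at 0.45 (SE 0.18), Atp6v1g2 at 0.45 (SE 0.20), Atp6v1d at 0.34 (SE 0.15) and Atp6v1g1 at 0.30 (SE 0.12). Groups did not overlap for Atp6v1f and Atp6v1g1, against 3.43% of all genes with no overlap in that direction. None of these passed the adjustment.

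The count of 7 V1 subunits rested on several libraries. The share of all genes at an unadjusted p below 0.05 in the same direction moved as well, from 11.9% in all 8 libraries. Without male 1 the count was 1, against 4.55% of all genes. Leaving out female 4 gave 2 against 9.57%, female 1 gave 3 against 4.09%, and male 4 gave 3 against 6.53%. Leaving out female 3 gave 4 against 4.11%, and male 2 gave 4 against 11.8%. It was 6 without female 2, against 17.3%, and 7 without male 3, against 20.3%. Without the 3 libraries at odds with their label it was 0, where 0.742% of all genes passed in that direction and 1.19% in the other, and the V1 median was 0.18 beside 0.012 for all genes. Median-ratio scaling moved the median of all genes from 0.15 to 0.0042; there 2 V1 subunits had an unadjusted p below 0.05, and the V1 median was 0.18. With female 1 and female 3 averaged as 1 library the count was 3, against 4.09% of all genes. With the replicate block it was 6, against 15.4% of all genes in that direction and 2.49% in the other.

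The neuron markers lay in the same direction. The 8 markers, led by Nefl, Tubb3 and Uchl1, summed between 12512 and 15680.1 CPM in female 1 to 4 and between 8348 and 13725 CPM in male 1 to 4. All 8 were higher in the libraries labelled female, beside 71.7% of all genes. Their median log2 fold change was 0.40. That median was 0.24 with median-ratio scaling and 0.14 without the 3 libraries. The 4 skeletal muscle markers were all higher there too, with a median of 0.23. This became 0.071 with median-ratio scaling and -0.21 without the 3 libraries. Male 1 had the lowest neuron marker sum, as it had the lowest V1 sum. The summed V1 level was 1967, 1529, 1955 and 1891 CPM in female 1 to 4 and 1124, 1385, 1768 and 1405 CPM in male 1 to 4. The composition of the libraries also differed. Mitochondrial ribosomal RNA took 3.21, 5.29, 3.86 and 7.69% of reads in female 1 to 4 and 15.6, 4.92, 8.59 and 11.4% in male 1 to 4. Protein-coding genes took 93.8, 86.3, 93.1 and 86.8% in female 1 to 4 and 78.3, 87.3, 88.2 and 82.4% in male 1 to 4. Male 1, lowest in V1 and in neuron markers, was the highest in mitochondrial ribosomal RNA and the lowest in protein-coding reads. The part of neuron content, muscle content and library composition in the V1 values was not tested. As a description chosen after the values were seen, the ratio of summed V1 to summed V0 CPM was 1.69 ± 0.163 (SD, n = 4) on the labelled female side and 1.445 ± 0.167 on the male side, with overlapping groups.

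**Figure D3:**
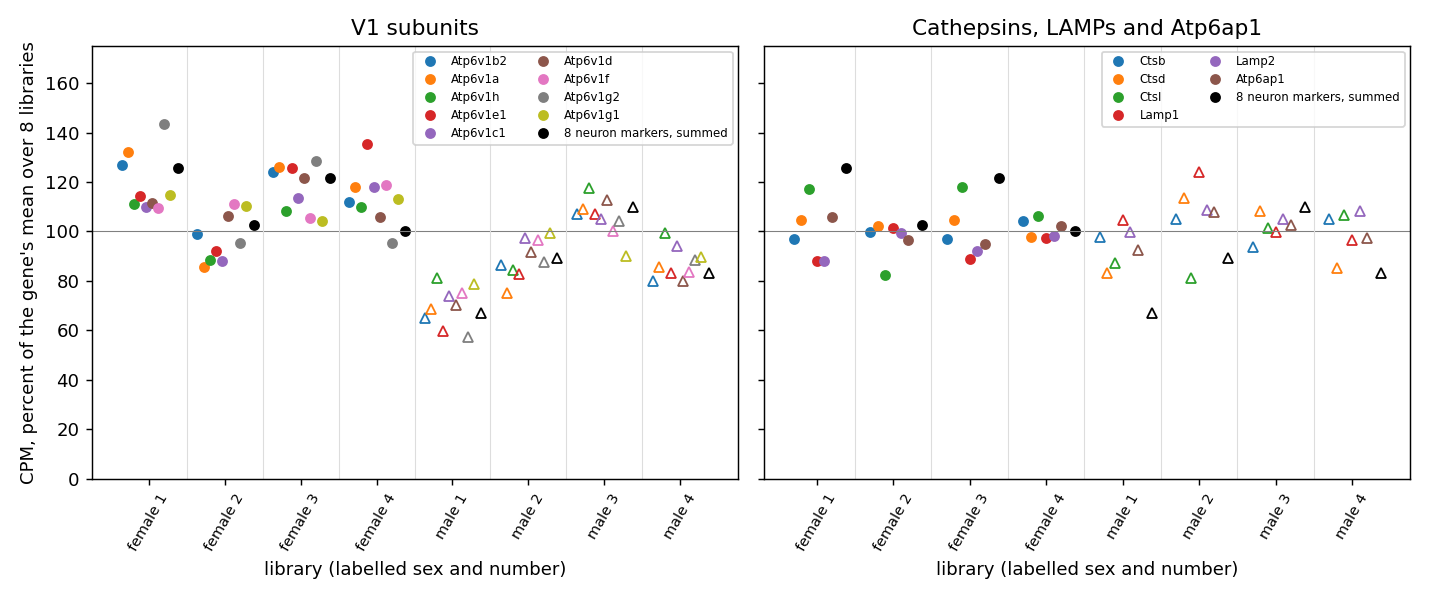
Level in each library as percent of the gene's mean over 8 libraries, for V1 subunits with a mean of at least 10 CPM (left) and for Ctsb, Ctsd, Ctsl, Lamp1, Lamp2 and Atp6ap1 (right); circles are libraries labelled female, triangles those labelled male, and black symbols the sum of 8 neuron markers. Most V1 subunits and the neuron markers are lowest in male 1, while Ctsb stays close to its mean in every library.

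The 3 tested LAMP genes were lower in the libraries labelled female, as they were under each alternative fitted. Lamp2 had a log2 fold change of -0.16 (SE 0.10) with an unadjusted limma p of 0.157, adjusted 0.471; its groups did not overlap, against 1.13% of all genes with no overlap in that direction. Without the 3 libraries at odds with their label Lamp2 was at -0.12, with an unadjusted limma p of 0.454. Lamp1 had -0.17 (SE 0.12) with an unadjusted p of 0.179, and Lamp5 -0.83 (SE 0.62). Without male 2, Lamp5 was at -0.066 and Lamp1 at -0.099. With median-ratio scaling Lamp1 and Lamp2 were at -0.33 and -0.32, both with an unadjusted limma p below 0.05. In that fit 6.54% of all genes passed in that direction, and limma's adjusted p was 0.362 and 0.356. Without the 3 libraries at odds with their label Lamp1 was at -0.095, with an unadjusted limma p of 0.609. Atp6v0a4 was next among members lower in the libraries labelled female, at -0.33 (SE 0.24) and close to the floor. Also lower in the libraries labelled female were 5 of 5 tested fibroblast markers (median -0.21), 3 of 3 tested osteoclast markers (median -0.20), 6 of 9 tested macrophage markers (median -0.078) and 8 of 8 tested markers of neutrophils and precursors (median -0.19). The tested osteoclast markers were Acp5, Mmp9 and Ocstamp, the last with a mean of only 1.17 CPM. Dcstamp, Calcr, Oscar and Siglec15 had means below 1 CPM. Without the 3 libraries at odds with their label, the medians were -0.15 (fibroblast), -0.29 (osteoclast), 0.056 (macrophage) and -0.91 (neutrophils and precursors). The part of these marker lists in the LAMP values was not tested.

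Among the highest cathepsins, Ctsb had a log2 fold change of -0.013 (SE 0.11), with a 95% interval from -0.26 to 0.24, and Ctsd 0.081 (SE 0.13), from -0.21 to 0.37. Ctsl had 0.17 (SE 0.15), from -0.17 to 0.50. Of the 9 tested cysteine cathepsins 7 were higher in the libraries labelled female, beside 71.7% of all genes. Their median was 0.054, and -0.10 with median-ratio scaling. The accessory gene Atp6ap1 had -0.0014, from -0.24 to 0.23.

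**Figure D4:**
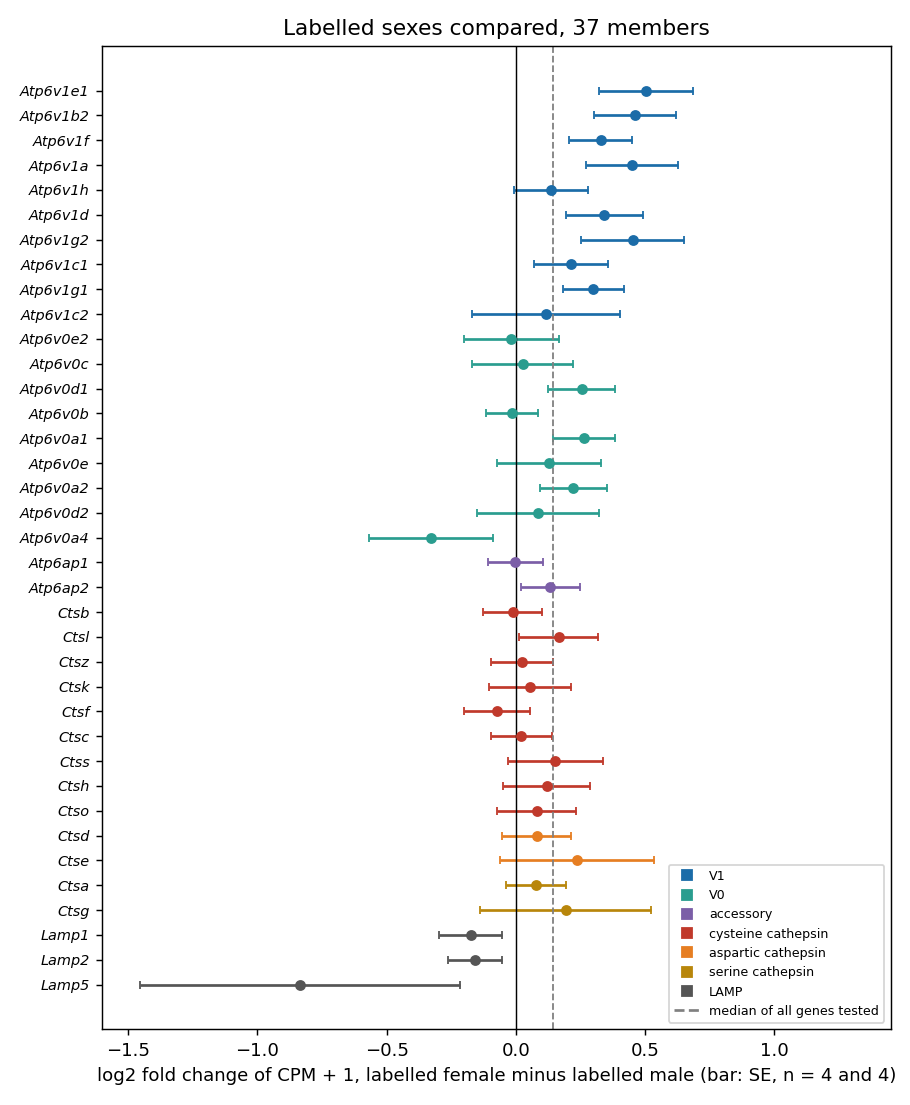
Log2 fold change of CPM + 1, labelled female minus labelled male, for the 37 tested members by role, with the standard error (4 libraries a group); the dashed line is the median of all genes tested. The 10 V1 subunits lie right of 0 with a median of 0.34 (9 of 10 with median-ratio scaling), and the 3 LAMP genes lie left of 0.

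Other genes of the lysosome were read from lists of hydrolases, membrane and transport proteins, delivery factors, transcription factors, pump assembly factors, cathepsin inhibitors and the mTORC1 scaffold. None of the 98 tested passed the adjusted threshold, and 52 were higher in the libraries labelled female, beside 71.7% of all genes. The highest were Psap, the precursor of the saposins, at 3018 ± 188 CPM, Gaa, the acid alpha-glucosidase, at 658 ± 106, and Cst3, the cathepsin inhibitor cystatin C, at 632 ± 116. The hydrolases and activators had a median of -0.053, with 24 of 35 lower in the libraries labelled female, and -0.21 with median-ratio scaling. The medians of the fibroblast, neutrophil and macrophage markers given beside the LAMP genes lay in the same direction. Without the 3 libraries at odds with their label the macrophage median was 0.056. The hydrolase median was then -0.014, beside 0.012 for all genes. The part of these markers in the hydrolases was not tested. Other membrane and transport proteins had a median of -0.041, delivery receptors and factors 0.058 and the 3 tested lysosomal transcription factors 0.065; with median-ratio scaling these were -0.20, -0.097 and -0.09. The 5 tested cathepsin inhibitors had 0.26 (0.11 with that scaling), and the 3 further pump subunit genes (Rnasek, Tcirg1 and Atp6ap1l) -0.013 (-0.17). Among genes of these lists that were lower in the libraries labelled female, the smallest p belonged to Gaa at -0.38 (SE 0.12), Sgsh, heparan sulfate sulfohydrolase, at -0.38 (SE 0.17), and Naglu, alpha-N-acetylglucosaminidase, at -0.34 (SE 0.15).

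On the other side, 11 of 12 tested pump assembly and regulation genes were higher in the libraries labelled female, beside 71.7% of all genes. Their median was 0.23, beside 0.15 for all genes. For the mTORC1 scaffold, the proteins that recruit the growth regulator mTORC1 to lysosomes, 9 of 10 were higher, with a median of 0.35. The smallest p belonged to the Rag GTPase genes Rraga at 0.42 (SE 0.15), Rragd at 0.56 (SE 0.20) and Rragc at 0.45 (SE 0.17), and the adjusted p from limma was 0.372 for each. With median-ratio scaling the medians of these lists were 0.074 and 0.20. Without the 3 libraries at odds with their label they were 0.025 and 0.17, beside 0.012 for all genes. The part of the neuron markers and library composition given for the V1 sector was not tested here either.

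Each of the 8 neuron markers had a mean of at least 37.4 CPM, so the neuronal part of the labelled tissue was present. Dendritic and B cell markers (Flt3, Cd79a and Cd79b) summed between 36.5 and 42.1 CPM in female 1 to 4 and between 31.6 and 55.5 CPM in male 1 to 4, and skeletal muscle markers (Ttn, Acta1 and Myh4) between 2202 and 6216 CPM in female 1 to 4 and between 2594 and 5019 CPM in male 1 to 4.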

How the data were processed

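The authors deposited 1 table of values per labelled sex, with 48431 gene rows. The tables are named as TPM, but the deposited values are CPM: each column sums to 1000000, and 95.7% to 96.4% of the values above 0 are whole multiples, within 0.01 of a step, of a step that does not depend on the gene (2% by chance). Per the labels' protocols, footprints of 28 to 34 nt were size selected. Per the submitters' processing notes, the tools were Cufflinks 2.2.1, TopHat2 2.1.1, FastQC 0.11.5 and Bowtie2 2.2.9, and the builds named are mm10 and GRCm38.p4; the sources used here do not give their roles, the annotation or the treatment of reads matching several genes.

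Rows of the same symbol were summed. Coding lengths and positions came from GENCODE M21 (GRCm38), which held 99.2% of the gene identifiers; positions are counted from 1. The labelled sexes were compared on log2(CPM + 1) by limma 3.58.1 (R 4.3.3), with an intensity trend, two-sided, for all genes whose mean reached 1 CPM, and Benjamini-Hochberg adjustment over all of them. The scripts were tested on simulated data. Alternatives were a pseudocount of 0.5, no filter, median-ratio scaling, the replicate number as a block, leaving out libraries, averaging female 1 with female 3, and other lengths, of which the principal transcript and the unique windows were chosen after seeing the data. The main fit did not pair libraries. Same-numbered libraries had correlated deviations from their group mean, 0.288, 0.492, 0.531 and 0.592, so the number was fitted as a block in an alternative only. Such a pairing would rest on the data, since no label says what a number stands for. Female 1 correlated best with male 3, not male 1. Values in every library are given for the highest member of each role, paralogs of subunits with several measured genes, the 3 members with the smallest p in each direction, and members varying over 3-fold with a mean of at least 5 CPM. The members and lists were chosen with earlier results of these data known. The glial marker lists are not reported here. Other steps used pandas 2.3.3, numpy 2.4.6, matplotlib 3.10.9 and scipy 1.17.1 in Python 3.11.15.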

Additional observations from a re-analysis of the deposited data

Results flagged for a closer look

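Within each labelled group of 4, a library was marked where its gap to the nearest other, relative to the group's range, was above Dixon's 95% critical value. Over the 37 tested members and both groups, 3 of 74 groups were marked, and chance marks about 1 in 20. Lamp5 was at 25.5 CPM in male 2, where the other libraries labelled male were between 1.49 and 2.95 CPM. Atp6v1h was at 226 CPM in female 2, where the others labelled female were between 276 and 283 CPM. Ctss was at 80.3 CPM in female 4, where the others were between 47.9 and 48.3 CPM.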

How the results depend on the processing

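The result that no member passed the adjusted threshold held in the main fit, in the 8 leave-one-out fits and in the 6 other fits of the comparison, with a smallest adjusted p of 0.132 for a member. Over all genes, 0 passed in the main fit and in every leave-one-out fit, 27 passed with the replicate number as a block and 5 without the 3 libraries against their label. Under the block the count of members remained 0 and the V1 count at an unadjusted p below 0.05 was 6; the block changed no other call. The cause of these differences was not tested. The median log2 fold change of members was -0.026 with median-ratio scaling and ran from 0.022 to 0.19 when single libraries were left out; that of V1 subunits ran from 0.25 to 0.43. The share of Atp6v1g2 was 19.4% with unique windows, where few bases of Atp6v1g1 remain. The V0 sum per kilobase was 1465 with the coding length of the principal transcript, in place of 1315. Of the 37 tested members 15 kept their sign in every fit. With median-ratio scaling the sign turned for Atp6v0c at -0.13, Atp6v0d2 at -0.038, Atp6v0e at -0.021, Atp6v1h at -0.025, Atp6ap2 at -0.026, Ctsd at -0.079, Ctsc at -0.14, Ctsh at -0.036, Ctsz at -0.14, Ctsk at -0.10, Ctss at -0.0041, Ctso at -0.069, Ctsa at -0.082. Without the 3 libraries against their label it turned for Atp6v0c at -0.0011, Atp6v1h at -0.014, Atp6v1c2 at -0.34, Ctsd at -0.023, Ctse at -0.10, Ctsl at -0.031, Ctsb at 0.011, Ctsc at -0.065, Ctsk at -0.20, Ctsg at -0.53. Leaving out single libraries gave both signs for Atp6ap1 from -0.038 to 0.035, Atp6v0b from -0.038 to 0.029, Atp6v0c from -0.14 to 0.19, Atp6v0d2 from -0.062 to 0.27, Atp6v0e from -0.037 to 0.25, Atp6v0e2 from -0.12 to 0.13, Atp6v1c2 from -0.14 to 0.26, Ctsb from -0.045 to 0.010, Ctsc from -0.041 to 0.10, Ctse from -0.079 to 0.50, Ctsf from -0.13 to 0.038, Ctsg from -0.12 to 0.40, Ctsk from -0.075 to 0.16, Ctss from -0.029 to 0.22, Ctsz from -0.034 to 0.081. A count model and lengths from protein sequences had been planned and were not run. No comparison was made for members with a mean below 1 CPM. Depth limits values near the floor of 3 reads, also in a tested member such as Atp6v1c2, at 0.271 CPM in male 1.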
